A study of Mus musculus with 8 samples.

Results

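Among the genes of oxidant production and oxidant defence, 9 were followed in mouse monocytes and their progenitors, of which 5 code for parts of the phagocyte NADPH oxidase (Cybb, Cyba, Ncf1, Ncf4 and Rac2) and 4 code for enzymes of the glutathione and thioredoxin systems (Gsr, Gclm, Gpx1 and Txnrd1). They were taken by gene symbol from a table of 13388 genes, in which all 9 were present, and all 9 passed the filter on low values (at least 1 CPM, a read count scaled by library size, in 2 or more libraries). RNA had been sequenced in 8 libraries of wild-type mouse bone marrow cells, which form 4 groups of 2: cMoPs (common monocyte progenitors, which divide and give rise to monocytes) on OP9-DLL1 cells, cMoPs on OP9 cells, Ly6C+ classical monocytes on OP9-DLL1 cells, and Ly6C+ classical monocytes on OP9 cells. Cells of both kinds had been sorted and then cultured for 6 h on the stroma. OP9 is a bone marrow stromal cell line of mouse, and OP9-DLL1 is that line displaying the Notch ligand DLL1. The 4 groups thus differ in the ligand and the cell type. Any other difference between the OP9 and OP9-DLL1 cells cannot be told apart from the ligand. The labels give neither the age or sex of the mice nor whether a library came from 1 animal or a pool.

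The phagocyte oxidase moves electrons from cytosolic NADPH across a membrane to oxygen and so makes superoxide, which gives rise to hydrogen peroxide. Its catalytic core, gp91phox and p22phox, sits in the membrane, while its cytosolic subunits, p47phox and p40phox among them, wait in the cytosol and join the core with a Rac GTPase when the cell is stimulated. Glutathione and thioredoxin dispose of peroxides inside the cell, and both are returned to their reduced forms with NADPH, the same electron donor that the oxidase uses.

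Gsr, glutathione reductase, was 1.96-fold higher in monocytes on OP9-DLL1 than on OP9, while the oxidase genes other than Ncf1 had no difference there that passed or came near the threshold. Between the cell types, the membrane core genes Cybb and Cyba were 3.01-fold to 4.12-fold lower in cMoPs than in monocytes on the same stroma, whereas Gpx1 and Txnrd1 passed in neither comparison. Genes are said to have passed where the Benjamini-Hochberg adjusted p of limma-trend, over 13374 genes, was under 0.05, and log2 fold changes are given ± SE.

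Gpx1 and Txnrd1 are selenoproteins, in which a TGA codon inside the reading frame is read as selenocysteine, the catalytic residue. In the GENCODE M21 transcripts, Gpx1-201 carried it at codon 47 of 201 (chr9:108339451-108339453, plus strand, exon 1 of 2), and Txnrd1-201 at codon 498 of 499 (chr10:82896037-82896039, plus strand, exon 14 of 14), directly before the last codon. The surrounding coding sequence is shown because this codon sets both enzymes apart from most others, with the codon in capitals.
Gpx1: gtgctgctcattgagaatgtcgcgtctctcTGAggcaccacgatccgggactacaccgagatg
Txnrd1: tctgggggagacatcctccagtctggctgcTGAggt

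Upstream sequence was looked at for the antioxidant response element, the motif bound by NRF2, a transcription factor known to drive glutathione and thioredoxin genes. Windows of 300 bases, 250 before and 50 after a RefSeq start site (GRCm38.p6), were found for 6 of the 9 genes in 8 windows, with no entry matched for Ncf4, Rac2 and Gsr. The core TGACNNNGC, searched on both strands, occurred in 12.4% of all 32851 windows. It was found in the Gclm window and in the second of the 3 Txnrd1 windows, on the reverse strand in both, and not in those of Cybb, Cyba, Ncf1 and Gpx1. The 250 bases before each start are shown, with the match in capitals, at chr3:122245307-122245556 for Gclm and chr10:82858956-82859205 for Txnrd1, both on the plus strand.
Gclm: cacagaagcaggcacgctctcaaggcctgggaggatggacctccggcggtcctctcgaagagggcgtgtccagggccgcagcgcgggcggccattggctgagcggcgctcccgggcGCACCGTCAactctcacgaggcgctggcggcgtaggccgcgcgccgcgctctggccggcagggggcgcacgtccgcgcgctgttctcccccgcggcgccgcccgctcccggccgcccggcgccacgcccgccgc
Txnrd1: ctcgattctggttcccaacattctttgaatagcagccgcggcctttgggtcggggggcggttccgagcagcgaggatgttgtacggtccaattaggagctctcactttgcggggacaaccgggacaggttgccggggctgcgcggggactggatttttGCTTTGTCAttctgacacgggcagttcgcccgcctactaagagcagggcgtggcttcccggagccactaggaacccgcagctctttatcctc
The core of the motif of PU.1, a factor of the myeloid lineage, GAGGAA, also searched on both strands, was in 28.3% of all windows, in that of Cybb and in the first Txnrd1 window, and no window of these genes held both motifs.

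Depth was 47316323 to 62459962 reads per library, so that 1 read corresponded to 0.0151 to 0.0231 CPM and none of the 9 genes was limited by counting. The Notch target Hes1 followed the ligand: it averaged 3.02 CPM in cMoPs on OP9-DLL1 against 0.0409 CPM in cMoPs on OP9, while monocytes averaged 11.5 CPM on OP9-DLL1 against 0.0301 CPM on OP9. The 7 progenitor markers measured summed to 14676 to 21960 CPM in the cMoP libraries and 162 to 295 CPM in the monocyte libraries, and all 7 were higher in cMoPs on both stromas. Of 7 classical monocyte markers, Ccr2, Csf1r and Fcgr1 were lower in cMoPs on both stromas and the other 4, Ly6c2 among them, were higher. The 2 libraries of monocytes on OP9 were the pair farthest apart, since 1445 genes differed over 2-fold between them, against 724 to 804 within the other groups. Of the 9 genes, 7 were higher in replicate 1 of that pair, by up to 1.57-fold for Cyba. Replicate 1 was also higher for 7 of them in monocytes on OP9-DLL1 and for 6 in each cMoP group, by up to 1.36-fold for Gclm. Nothing in the labels says that the 2 replicates of a group are from different mice or cultures, so the tests weigh effects against a spread that may be only technical.

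**Figure D1:**
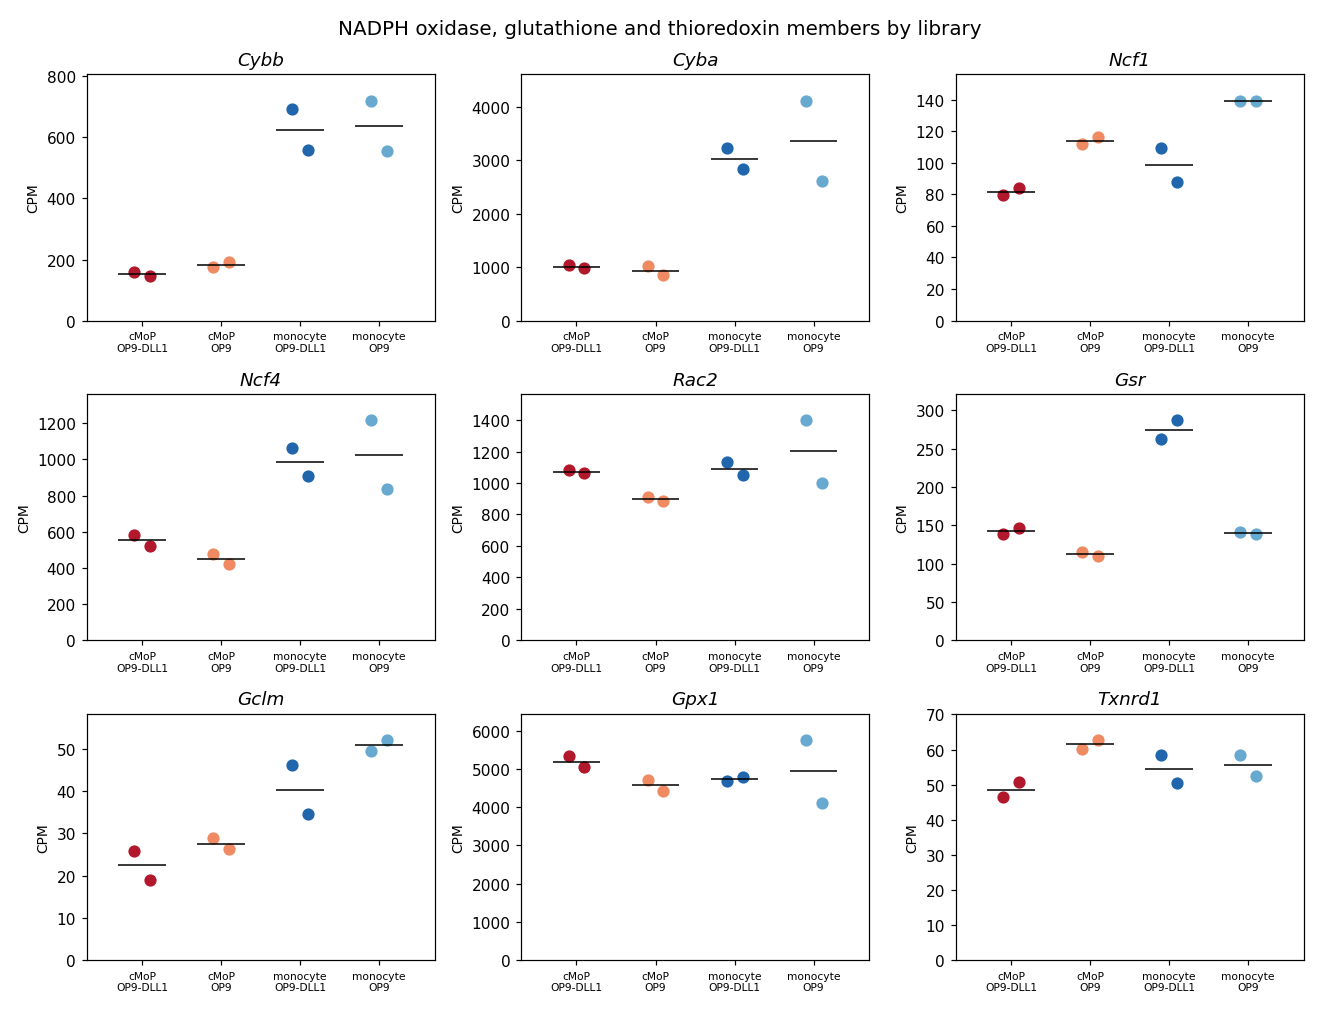
CPM of each of the 9 genes (vertical axes, starting at 0) in the 4 groups, 1 point per library and a bar at the mean of 2 libraries. Gsr stands at 263 and 287 CPM in monocytes on OP9-DLL1, above all 6 other libraries, and Cybb, Cyba and Ncf4 are lower in all 4 cMoP libraries than in any monocyte library.

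Levels of different genes were compared per kilobase of exon, since longer transcripts give more reads. Gpx1 was the highest of the 9 genes in every group, with mean levels of 3599 CPM per kb in cMoPs on OP9-DLL1, 3170 in cMoPs on OP9, 3289 in monocytes on OP9-DLL1 and 3423 in monocytes on OP9. Cyba came next, at 968 and 900 CPM per kb in cMoPs (OP9-DLL1, then OP9), and at 2921 and 3244 CPM per kb in monocytes (OP9-DLL1, then OP9). The libraries of these 2 genes overlapped in monocytes on OP9 and were apart elsewhere. Its partner Cybb was far lower per kb, at 26.0 and 31.4 CPM per kb in cMoPs and at 108 and 110 CPM per kb in monocytes, in the same order. In cMoPs Cybb therefore came after Rac2, Ncf4 and Gsr, and its libraries overlapped those of Ncf1 on OP9. In monocytes it came after Ncf4 and Rac2, overlapping Gsr on OP9-DLL1. Gclm and Txnrd1 were the lowest in each group, between 3.57 and 8.67 CPM per kb, and overlapped each other in monocytes but not in cMoPs. Ncf4 and Rac2 also overlapped in monocytes on OP9.

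**Figure D2:**
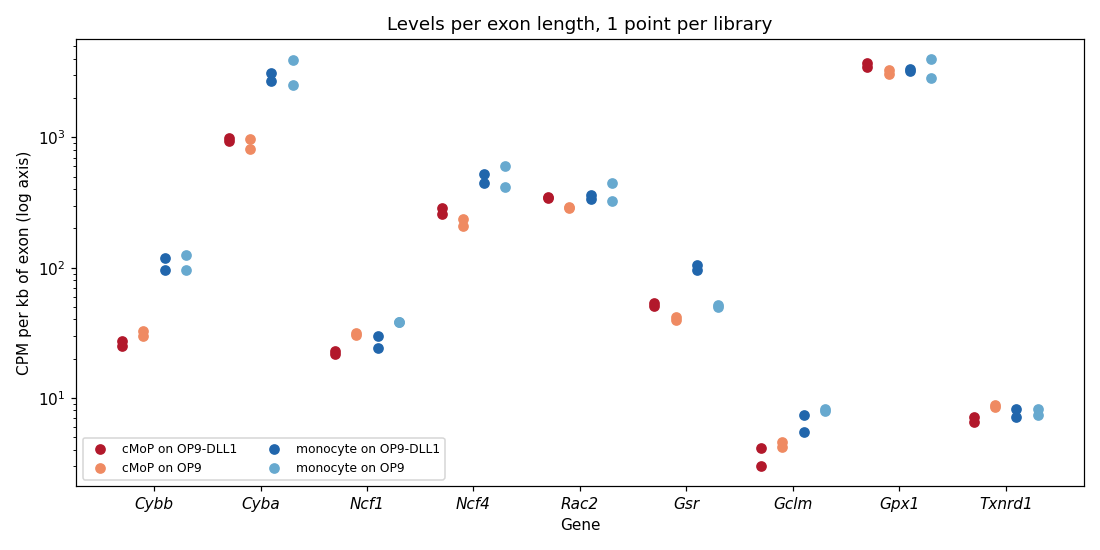
CPM per kb of exon (log axis) of the 9 genes, 1 point per library, coloured by group. Gpx1 and Cyba lie highest in all groups and Gclm and Txnrd1 lowest, and the gap between cMoP and monocyte points is widest for Cybb and Cyba.

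Between OP9-DLL1 and OP9, 1 of the 9 genes passed in monocytes, where 6.39% of all tested genes passed (3.36% higher and 3.03% lower). Of all calls in monocytes 52.6% were higher, against 39.8% after centring libraries on their medians, which moved the median of all genes by -0.08 log2 there and by 0.108 in cMoPs against monocytes on OP9-DLL1. That gene was Gsr, and it was higher on OP9-DLL1. None of the 9 passed in cMoPs by limma-trend, where 0.77% of all genes did (0.464% higher and 0.307% lower), although at an unadjusted p below 0.05 Gsr was higher and Ncf1 and Txnrd1 were lower, and voom on the recovered reads also called 0. The median log2 difference between OP9-DLL1 and OP9 was -0.04 over the 9 genes in monocytes, against 0.01 over all genes, and 0.11 in cMoPs, against 0.01. Leaving out replicate 2 of the monocytes on OP9, the lower library for most of these genes, brought the count in monocytes to 5, with Cyba, Ncf1, Rac2 and Gpx1 then lower on OP9-DLL1 (log2 fold changes of -0.44, -0.51, -0.36 and -0.28), while the share of all genes passing was 18.6% in that setting.

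The difference of the responses, cMoPs minus monocytes, passed for 0 of the 9 genes by limma-trend and by voom, with 0.0523% of all genes passing (0.0299% higher and 0.0224% lower) and with Gsr alone under an unadjusted p of 0.05. For Gsr that difference was -0.63 ± 0.15 (adjusted p = 0.233, limma-trend), with a 95% interval from -0.97 to -0.29, and each cell type had its own value in the direction of a higher level on OP9-DLL1. Without replicate 2 of the monocytes on OP9, 4 genes passed: Gsr (-0.61, adjusted p = 0.0272), Ncf4 (0.61), Rac2 (0.62) and Gpx1 (0.46), in a setting where 8.4% of all genes passed. With all libraries, the adjusted p of the other 8 genes was 0.607 or more.

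Between the cell types more of these genes differed, as did more of all genes. Of the 9 genes, 6 were lower in cMoPs than in monocytes on OP9, where 56.5% of all genes passed, with 27.7% lower and 28.8% higher, and 5 were lower on OP9-DLL1, where 57.4% passed, with 29.2% lower and 28.2% higher. None was higher in cMoPs in either comparison by limma-trend, at an unadjusted p under 0.05 or by voom. Median log2 fold changes of the 9 genes were -0.83 on OP9-DLL1 and -0.40 on OP9, against -0.01 and 0.01 over all genes. These comparisons use the same 8 libraries as the coculture comparisons, so the 2 kinds of result are not independent. As these are bulk samples, a lower level can mean fewer cells that hold the RNA or less RNA per cell, which cannot be told apart. Summed macrophage markers (8 measured) were 261 to 281 CPM in cMoPs and 1858 to 2972 CPM in monocytes. In both cell types this macrophage sum was mostly Cd68 (220 to 244 CPM in cMoPs and 1486 to 2344 CPM in monocytes). The 11 neutrophil markers summed to 8100 to 12549 CPM in cMoPs and 1747 to 2553 CPM in monocytes. In cMoPs that sum was mostly Elane, a gene that is also on the progenitor list. Most neutrophil markers that passed went the other way: 4 were lower and 2 higher in cMoPs on OP9-DLL1, and 5 were lower and 1 higher on OP9. The part of other cells in these differences was not tested.

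**Figure D3:**
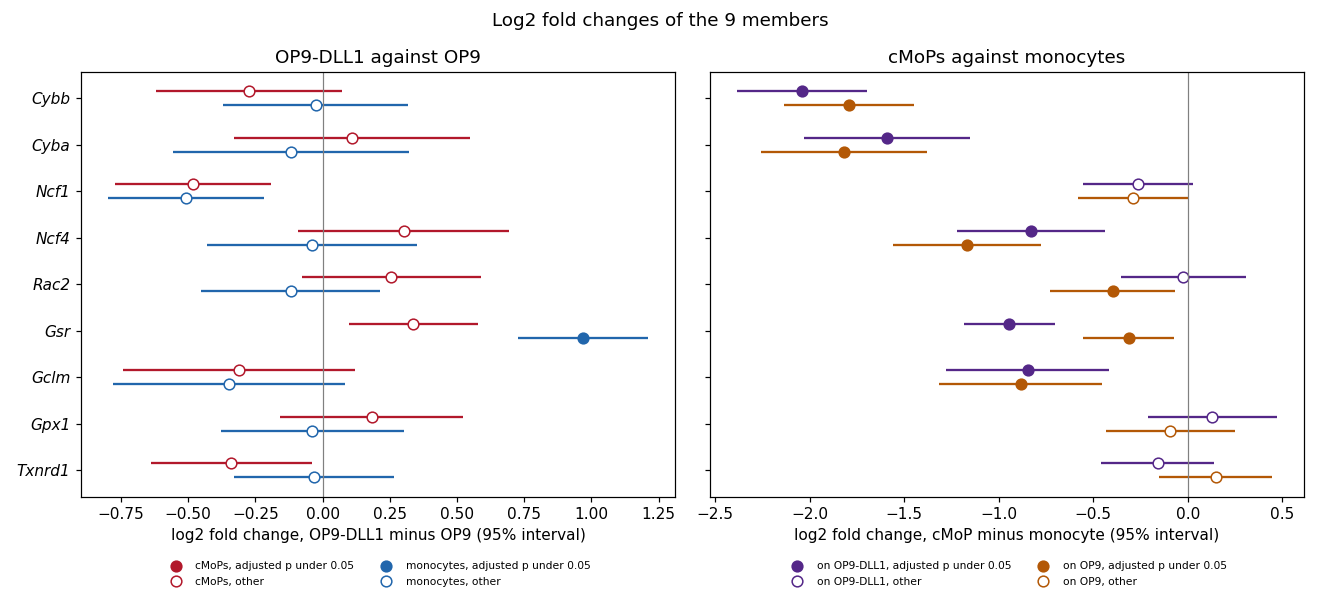
Log2 fold changes of the 9 genes with their 95% intervals (horizontal bars) in the coculture and cell type comparisons, filled where the adjusted p was under 0.05. The intervals of Cybb, Cyba, Ncf4, Gclm and Gsr between the cell types on both stromas exclude 0, as do those of Gsr and Ncf1 between OP9-DLL1 and OP9 in both cell types, and most other coculture intervals span it.

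Cybb (ENSMUSG00000015340, chrX:9435252-9487771, minus strand, GRCm38) codes for gp91phox, also called NOX2, the subunit that carries the electrons. It had 158 and 145 CPM in cMoPs on OP9-DLL1 and 175 and 191 CPM in cMoPs on OP9. Monocytes had 691 and 559 CPM on OP9-DLL1 and 721 and 555 CPM on OP9. All 4 cMoP libraries were below all 4 monocyte libraries, and within cMoPs both OP9-DLL1 libraries were below both OP9 libraries. The gene was 4.12-fold lower in cMoPs than in monocytes on OP9-DLL1 (log2 fold change -2.04 ± 0.15, adjusted p = 5.87e-06, limma-trend) and 3.47-fold lower on OP9 (-1.79 ± 0.15, adjusted p = 1.61e-05). On OP9-DLL1 against OP9 its log2 fold changes were -0.27 ± 0.15 in cMoPs (adjusted p = 0.652) and -0.03 ± 0.15 in monocytes (adjusted p = 0.945), with 95% intervals of -0.62 to 0.07 and -0.37 to 0.32.

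Cyba (ENSMUSG00000006519, chr8:122424776-122432930, minus strand) codes for p22phox, the smaller membrane partner that holds gp91phox in place and offers p47phox its docking site. Its levels were 1033 and 977 CPM in cMoPs on OP9-DLL1 and 1020 and 850 CPM in cMoPs on OP9. Monocytes had 3236 and 2834 CPM on OP9-DLL1 and 4121 and 2620 CPM on OP9. The cell types did not overlap, whereas the stromas did in both. Cyba was 3.01-fold lower in cMoPs than in monocytes on OP9-DLL1 (-1.59 ± 0.19 log2, adjusted p = 0.00012, limma-trend) and 3.53-fold lower on OP9 (-1.82 ± 0.19, adjusted p = 5.91e-05). On OP9-DLL1 against OP9 the log2 fold changes were 0.11 ± 0.19 in cMoPs (adjusted p = 0.932) and -0.12 ± 0.19 in monocytes (adjusted p = 0.779). The cell type calls of both membrane genes held without any 1 library, at an adjusted p of at most 0.00238.

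Ncf1 (ENSMUSG00000015950, chr5:134220053-134229625, minus strand) codes for p47phox, the organizer whose phosphorylation starts the assembly. It stood at 79.6 and 83.8 CPM in cMoPs on OP9-DLL1 against 112 and 116 CPM in cMoPs on OP9. In monocytes it had 109 and 87.9 CPM on OP9-DLL1 against 139 and 139 CPM on OP9. In each cell type both OP9-DLL1 libraries were below both OP9 libraries. Neither difference passed: it was -0.48 ± 0.13 log2 in cMoPs (adjusted p = 0.188, limma-trend; 95% interval -0.77 to -0.19) and -0.51 ± 0.13 in monocytes (adjusted p = 0.0501; 95% interval -0.80 to -0.22). The value in monocytes lay at the threshold, and went under it with voom (adjusted p = 0.0397), a pseudocount of 1 CPM (0.0391), centring on library medians (0.0324) and without replicate 2 of the monocytes on OP9 (0.0328), but it was above the threshold with no variance trend (0.153) and with only the libraries compared (0.18), and the authors' deposited table gives 0.0916. An adjusted p of 0.327 was obtained without replicate 2 of the monocytes on OP9-DLL1, 0.0611 without replicate 1 there and 0.0547 without replicate 1 of the monocytes on OP9. In a fit of the cMoP libraries alone, where 2.36% of all genes passed, the value in cMoPs had an adjusted p of 0.026. The mean of both responses, a contrast added after these values had been seen, was -0.50 ± 0.09 (adjusted p = 0.0136, where 6.33% of all genes passed and 2.52% were lower), and this call ended with no variance trend (adjusted p = 0.0771), without each of the 4 cMoP libraries and without replicate 2 of the monocytes on OP9-DLL1 (up to 0.0772). The log2 difference between cMoPs and monocytes did not pass on OP9-DLL1 (-0.26 ± 0.13, adjusted p = 0.107) or on OP9 (-0.29 ± 0.13, adjusted p = 0.0819). Without replicate 2 of the monocytes on OP9-DLL1, the value on OP9-DLL1 was -0.42 and passed (adjusted p = 0.0428), and without replicate 1 there its adjusted p was 0.57. Of the exon length of Ncf1, 408 bases (11.1%) overlap Gtf2ird2 on the opposite strand, which the library kit does not tell apart, and Gtf2ird2 itself had 2.26 to 6.67 CPM.

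Ncf4 (ENSMUSG00000071715, chr15:78244801-78262580, plus strand) codes for p40phox, which binds a membrane lipid of the phagosome. It had 585 and 524 CPM in cMoPs on OP9-DLL1 and 480 and 420 CPM in cMoPs on OP9. Monocytes had 1062 and 910 CPM on OP9-DLL1 and 1217 and 838 CPM on OP9. Every cMoP library was below every monocyte library. The gene was 1.78-fold lower in cMoPs than in monocytes on OP9-DLL1 (-0.83 ± 0.17 log2, adjusted p = 0.00295, limma-trend) and 2.25-fold lower on OP9 (-1.17 ± 0.17, adjusted p = 0.000437), calls that held without any 1 library. In cMoPs the OP9-DLL1 libraries were the higher pair (0.30 ± 0.17, adjusted p = 0.664), and in monocytes the stromas overlapped (-0.04 ± 0.17, adjusted p = 0.927).

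Rac2 (ENSMUSG00000033220, chr15:78559167-78572783, minus strand) codes for the Rac GTPase of blood cells, which in its GTP form completes the active oxidase. Its levels were 1080 and 1066 CPM in cMoPs on OP9-DLL1 and 910 and 887 CPM in cMoPs on OP9. Monocytes had 1131 and 1052 CPM on OP9-DLL1 and 1399 and 1002 CPM on OP9. On OP9-DLL1 the cell types overlapped (-0.02 ± 0.15 log2, cMoPs minus monocytes, adjusted p = 0.901, limma-trend; 95% interval -0.36 to 0.31). On OP9 Rac2 was 1.32-fold lower in cMoPs (-0.40 ± 0.15, adjusted p = 0.0435), a call that ended without either cMoP library or replicate 1 of the monocytes on OP9 (adjusted p up to 0.165). It ended too with median centring, with no variance trend and in a fit of the 4 libraries alone. In cMoPs both OP9-DLL1 libraries were above both OP9 libraries, a difference that did not pass (0.26 ± 0.15, adjusted p = 0.664), and in monocytes the stromas overlapped (-0.12 ± 0.15, adjusted p = 0.7). Among the 5 oxidase genes its cell type difference on OP9-DLL1 was the closest to 0.

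Gclm (ENSMUSG00000028124, chr3:122245557-122270732, plus strand) codes for the modifier subunit of glutamate-cysteine ligase, which carries out the rate-limiting step of glutathione synthesis. It had 25.9 and 19.0 CPM in cMoPs on OP9-DLL1 and 28.8 and 26.3 CPM in cMoPs on OP9. Monocytes had 46.1 and 34.6 CPM on OP9-DLL1 and 49.5 and 52.1 CPM on OP9. Both cMoP groups were below both monocyte groups, and in each cell type the OP9-DLL1 libraries were below the OP9 libraries. Gclm was 1.80-fold lower in cMoPs than in monocytes on OP9-DLL1 (-0.85 ± 0.19 log2, adjusted p = 0.00435, limma-trend) and 1.84-fold lower on OP9 (-0.88 ± 0.19, adjusted p = 0.0037), and without any 1 library the adjusted p was at most 0.0453. The coculture differences did not pass in cMoPs (-0.31 ± 0.19, adjusted p = 0.686) or in monocytes (-0.35 ± 0.19, adjusted p = 0.333). Of its exons 296 bases (4.7%) overlap Gm17494 on the opposite strand (9.14 to 16.0 CPM) and 244 bases (3.9%) the pseudogene Gm6061 on the same strand, so a part of these low counts could be shared.

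Gsr (ENSMUSG00000031584, chr8:33652523-33698163, plus strand) codes for glutathione reductase, which uses NADPH to turn oxidized glutathione back into its reduced form. It had 139 and 146 CPM in cMoPs on OP9-DLL1 against 116 and 110 CPM in cMoPs on OP9. In monocytes it had 263 and 287 CPM on OP9-DLL1 against 142 and 139 CPM on OP9. In each cell type the OP9-DLL1 libraries were above the OP9 libraries, and the monocytes on OP9-DLL1 were above all others. In monocytes Gsr was 1.96-fold higher on OP9-DLL1 (0.97 ± 0.11 log2, adjusted p = 0.00154, limma-trend; 95% interval 0.73 to 1.21), 59th of 13374 genes by p. Leaving out any 1 library gave 0.91 to 1.03, with an adjusted p of at most 0.0311, and the authors' deposited table gives 0.97 with an adjusted p of 0.00151, once turned to the same direction. In cMoPs the difference was 0.34 ± 0.11 (unadjusted p = 0.0111 in the fit across all genes, adjusted p = 0.29, limma-trend; 95% interval 0.10 to 0.58) and did not pass. The mean of both responses passed (0.65 ± 0.08, adjusted p = 0.00163, limma-trend). It contains the monocyte response that had already passed, so it is no separate result and does not show a response in cMoPs. Gsr was the only gene of the 9 to be higher in that mean, where 3.81% of all genes were higher.

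Gsr also differed between the cell types. On OP9-DLL1 it was 1.92-fold lower in cMoPs than in monocytes (-0.94 ± 0.11 log2, adjusted p = 7.48e-05, limma-trend), and this held without any 1 library (adjusted p at most 0.00165). On OP9 it was 1.24-fold lower (-0.31 ± 0.11, adjusted p = 0.0319), which ended without either cMoP library (adjusted p up to 0.165), with median centring, with no variance trend and in a fit of the 4 libraries alone, and the authors' deposited table gives an adjusted p of 0.063 for it. In the same monocyte libraries the 5 stroma markers measured (of 11 listed) summed to 4.19 and 16.6 CPM on OP9-DLL1 against 18.1 and 20.9 CPM on OP9. The only one of them to pass, Pdgfrb, went the other way, with 2.89 and 4.23 CPM on OP9-DLL1 against 0.0231 and 0.205 CPM on OP9. The platelet markers measured, Pf4 and Ppbp, summed to 22.2 and 12.7 CPM on OP9-DLL1 against 113 and 195 CPM on OP9. The part of the stroma and platelet markers in the Gsr result was not tested.

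Gpx1 (ENSMUSG00000063856, chr9:108338903-108340343, plus strand) codes for the cytosolic glutathione peroxidase that reduces hydrogen peroxide, the selenoprotein whose TGA codon lies early in the frame. Its levels were 5337 and 5037 CPM in cMoPs on OP9-DLL1 and 4720 and 4414 CPM in cMoPs on OP9. Monocytes had 4677 and 4801 CPM on OP9-DLL1 and 5755 and 4111 CPM on OP9. The 2 libraries of monocytes on OP9 spanned all the others. No comparison passed: cMoPs against monocytes gave 0.13 ± 0.15 log2 on OP9-DLL1 (adjusted p = 0.483, limma-trend; 95% interval -0.21 to 0.47) and -0.09 ± 0.15 on OP9 (adjusted p = 0.626; 95% interval -0.43 to 0.25). Without replicate 2 of the monocytes on OP9, the value on OP9 was -0.33 (adjusted p = 0.00298). On OP9-DLL1 against OP9 the differences were 0.18 ± 0.15 in cMoPs (adjusted p = 0.796) and -0.04 ± 0.15 in monocytes (adjusted p = 0.917).

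Txnrd1 (ENSMUSG00000020250, chr10:82833951-82897712, plus strand) codes for the cytosolic thioredoxin reductase. It belongs to the thioredoxin system and not to glutathione metabolism, and carries its selenocysteine at the very end of the protein. It stood at 46.5 and 50.7 CPM in cMoPs on OP9-DLL1 against 60.2 and 62.7 CPM in cMoPs on OP9. In monocytes it had 58.3 and 50.4 CPM on OP9-DLL1 against 58.6 and 52.5 CPM on OP9. The cMoP libraries were apart by stroma and the monocyte libraries were not. In cMoPs the difference was -0.34 ± 0.13 log2 (unadjusted p = 0.0298 in the fit across all genes, adjusted p = 0.439, limma-trend), and in monocytes -0.03 ± 0.13 (adjusted p = 0.919). Between cMoPs and monocytes it was -0.16 ± 0.13 on OP9-DLL1 (adjusted p = 0.325) and 0.15 ± 0.13 on OP9 (adjusted p = 0.364).

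The wider oxidase list held 14 genes, among them the 5 above, Rac1, Cybc1, Rap1a, Arhgdib, Vav1, Prkcd, Prkcb and Hvcn1. In cMoPs against monocytes 11 were lower and 1 higher on OP9-DLL1 (median log2 fold change -0.85), and 12 were lower and 1 higher on OP9 (median -0.80). Of all genes, 29.2% were lower and 28.2% higher on OP9-DLL1, and 27.7% were lower and 28.8% higher on OP9. Prkcd, a protein kinase C that phosphorylates p47phox, was lower in cMoPs (-1.47 ± 0.15 on OP9-DLL1 and -1.47 ± 0.15 on OP9, adjusted p = 4.38e-05 and 4.91e-05, limma-trend), as was Rap1a, a small GTPase found with the membrane core (-1.13 ± 0.12 on OP9-DLL1 and -0.71 ± 0.12 on OP9). The exception was Hvcn1, the voltage-gated proton channel that balances the charge moved by the oxidase, which was higher in cMoPs (1.67 ± 0.23 on OP9-DLL1 and 2.06 ± 0.23 on OP9, adjusted p = 0.000235 and 7.44e-05). Hvcn1 had 18.2 and 15.1 CPM in cMoPs on OP9-DLL1 and 11.4 and 12.4 CPM in cMoPs on OP9. Monocytes had 5.95 and 4.54 CPM on OP9-DLL1 and 3.23 and 2.53 CPM on OP9, so the cell types did not overlap. For these 3 genes no call ended without any 1 library. On OP9-DLL1 against OP9, limma-trend called 0 of the 14 genes in monocytes (unadjusted p below 0.05 for 3 higher and 1 lower, and 1 lower by voom) and 0 in cMoPs (2 higher and 1 lower unadjusted, and 0 by voom). Its share of all genes called was 6.39% in monocytes and 0.77% in cMoPs. Nearest to the threshold in monocytes, other than Ncf1, were Hvcn1 (0.86 ± 0.23, adjusted p = 0.0589) and Rap1a (0.43 ± 0.12, adjusted p = 0.0675).

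Genes of glutathione synthesis and cystine supply passed in both directions between the cell types. Of 8 tested, 4 were lower and 2 higher in cMoPs than in monocytes on OP9-DLL1 (median log2 fold change -0.37), and 3 were lower and 3 higher on OP9 (median -0.07). Among all genes 57.4% passed on OP9-DLL1 and 56.5% on OP9. Slc7a11, the cystine importer xCT, had 31.1 and 25.9 CPM in cMoPs on OP9-DLL1 and 11.0 and 11.7 CPM in cMoPs on OP9. Monocytes had 193 and 123 CPM on OP9-DLL1 and 111 and 108 CPM on OP9. Slc7a11 was lower in cMoPs on both stromas (-2.45 ± 0.20 on OP9-DLL1 and -3.27 ± 0.20 on OP9, adjusted p = 1.04e-05 and 2.75e-06, limma-trend). Ggt5, a cell surface enzyme that cleaves glutathione conjugates, was lower too (-3.97 ± 0.47 on OP9-DLL1 and -2.40 ± 0.47 on OP9). It had 0.351 to 0.827 CPM in the cMoP libraries and passed the filter only through the monocytes, which limits what its lower call means. Chac1, which degrades glutathione, was higher (2.82 ± 0.76 on OP9-DLL1, adjusted p = 0.0108, and 4.55 ± 0.76 on OP9, adjusted p = 0.000859, limma-trend). Chac1 had 7.10 to 9.66 CPM in cMoPs. Monocytes were near the floor, with 0.842 and 1.63 CPM on OP9-DLL1 and 0.854 and 0.112 CPM on OP9, so its fold changes are uncertain in size. The Chac1 call on OP9-DLL1 ended without replicate 1 of either group (adjusted p up to 0.0771).

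On OP9-DLL1 against OP9, 2 of these 8 genes were higher in monocytes (median log2 fold change of the 8, 0.53). There 3.36% of all genes were higher. Gss, glutathione synthetase, which adds glycine to complete glutathione, had 99.6 and 78.9 CPM on OP9-DLL1 against 42.0 and 34.0 CPM on OP9 (1.23 ± 0.16, adjusted p = 0.00375, limma-trend), with no overlap. Its call held without any 1 library (adjusted p at most 0.0362), as that of Gsr did. Ggt5 had 7.10 and 10.3 CPM on OP9-DLL1 against 2.42 and 2.19 CPM on OP9 (1.89 ± 0.47, adjusted p = 0.0467), and its call ended without any 1 of the 4 monocyte libraries (adjusted p up to 0.303), with median centring (0.0517) and with no variance trend (0.0868). In cMoPs Slc7a11 rose on OP9-DLL1 (1.32 ± 0.20, adjusted p = 0.0222), by limma-trend but not by voom or with no variance trend, and leaving out each of the 4 cMoP libraries ended the call (adjusted p up to 0.162). It was the only gene of the 7 lists to pass between the stromas in cMoPs by limma-trend, and voom called none of them. In the authors' deposited table it passed there as well (adjusted p = 0.02), and so did Mgst1 (0.88 log2, adjusted p = 0.0192), Abcc1 (-0.65, adjusted p = 0.0296) and Nadk (0.71, adjusted p = 0.019), for which limma-trend gave an adjusted p of 0.126, 0.0945 and 0.199.

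Among 10 glutathione peroxidases, reductase and glutaredoxins, 2 were lower and 2 higher in cMoPs than in monocytes on OP9-DLL1, and 3 were lower and 2 higher on OP9 (median log2 fold changes of 0.09 on OP9-DLL1 and -0.20 on OP9). The share of all genes passing was 57.4% on OP9-DLL1 and 56.5% on OP9. Glrx5, a mitochondrial glutaredoxin of iron-sulphur cluster assembly, was higher in cMoPs (1.30 ± 0.22 on OP9-DLL1 and 1.28 ± 0.22 on OP9, adjusted p = 0.000879 and 0.00102, limma-trend), and so was Glrx3 (0.89 ± 0.13 on OP9-DLL1 and 0.52 ± 0.13 on OP9), whose call on OP9 ended without replicate 2 of the cMoPs there (adjusted p = 0.0746). Gpx8, a peroxidase of the endoplasmic reticulum, had 0 reads in both cMoP libraries on OP9-DLL1 against 44 in the monocytes, at least 17.0-fold lower against a floor of 3 reads over the group. Gpx8 is counted among the lower genes on both stromas, though it passed the filter only through the monocytes on OP9 (2.01 and 1.32 CPM). Every library of the comparison on OP9-DLL1 was under 1 CPM, so that value lies at the floor. In monocytes Gsr was the only gene of the 10 to pass between the stromas, where 6.39% of all genes passed.

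Of 14 glutathione transferases, which conjugate glutathione to other molecules, 5 were higher and 3 lower in cMoPs on OP9-DLL1, and 6 were higher and 3 lower on OP9 (median log2 fold changes of 0.54 on OP9-DLL1 and 0.51 on OP9). Calls in this list were about as frequent as among all genes, of which 57.4% passed on OP9-DLL1 and 56.5% on OP9. Mgst2 was higher (3.91 ± 0.27 on OP9-DLL1 and 3.49 ± 0.27 on OP9, adjusted p = 3.44e-06 and 8.79e-06, limma-trend), while Mgst1 was lower (-1.91 ± 0.21 on OP9-DLL1 and -2.26 ± 0.21 on OP9, adjusted p = 5.79e-05 and 2.38e-05). Gstp1 was lower as well (-1.55 ± 0.11 on OP9-DLL1 and -1.33 ± 0.11 on OP9), with reads that could be split with its near-identical neighbour Gstp2. In monocytes Gstm1 rose on OP9-DLL1 (803 and 655 CPM against 409 and 404 CPM on OP9, 0.84 ± 0.19, adjusted p = 0.0368), a call that ended without either OP9-DLL1 library (adjusted p up to 0.202), with no variance trend (0.142) and with only the libraries compared (0.0566). The authors' deposited table gives it an adjusted p of 0.0816.

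Thioredoxins, peroxiredoxins, superoxide dismutases and catalase (16 genes) had 5 lower and 3 higher in cMoPs than in monocytes on OP9-DLL1, and 5 lower and 2 higher on OP9 (median log2 fold changes of -0.16 on OP9-DLL1 and -0.14 on OP9). Calls here were no more frequent than among all genes, of which 57.4% passed on OP9-DLL1 and 56.5% on OP9. Peroxiredoxins reduce peroxides, mostly with electrons from thioredoxin, and passed in both directions. The cytosolic Prdx1 was lower in cMoPs (-2.30 ± 0.19 on OP9-DLL1 and -2.31 ± 0.19 on OP9, adjusted p = 1.21e-05 and 1.49e-05, limma-trend), as was Prdx5 (-1.77 ± 0.25 on OP9-DLL1 and -2.07 ± 0.25 on OP9), whereas the mitochondrial Prdx3 was higher (1.09 ± 0.11 on OP9-DLL1 and 0.95 ± 0.11 on OP9). In monocytes on OP9-DLL1 Txnip, which binds and restrains thioredoxin, rose (0.74 ± 0.16, adjusted p = 0.0282) and Prdx6 fell (-0.83 ± 0.17, adjusted p = 0.0258). Prdx6 lost its call without replicate 2 of the monocytes on OP9-DLL1 and Txnip without either library there (adjusted p up to 0.161 and 0.158). Both lost it with no variance trend and with only the libraries compared (adjusted p of 0.103 to 0.139).

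NRF2 regulators and NRF2 target genes (a list of 24 genes) were mostly lower in cMoPs: 16 were lower and 1 higher on OP9-DLL1 (median log2 fold change -1.09), and 16 were lower and 2 higher on OP9 (median -0.87). Of all genes, 29.2% were lower on OP9-DLL1 and 27.7% on OP9. Bach2 is counted among the lower genes on both stromas. It had at most 2 reads in a cMoP library and passed the filter only through the monocytes (0.801 to 1.67 CPM). The list was drawn up without the 9 genes, which does not mean that none of them is an NRF2 target. Nqo1, a quinone reductase, had 1.69 and 3.32 CPM in cMoPs on OP9-DLL1 and 2.57 and 2.39 CPM in cMoPs on OP9. Monocytes had 87.1 and 54.1 CPM on OP9-DLL1 and 46.6 and 52.9 CPM on OP9. Nqo1 was lower in cMoPs on both stromas (-4.85 ± 0.32 on OP9-DLL1 and -4.32 ± 0.32 on OP9, adjusted p = 2.92e-06 and 7.74e-06, limma-trend). Blvrb, a biliverdin reductase that also reduces flavins, was lower too (-3.50 ± 0.18 on OP9-DLL1 and -3.19 ± 0.18 on OP9). Against 3.36% of all genes, 3 of the 24 were higher in monocytes on OP9-DLL1 than on OP9 (median 0.18), Sqstm1, Tkt and Taldo1. Of these Sqstm1, which codes for the autophagy receptor p62, had 56.5 and 59.1 CPM on OP9-DLL1 against 27.2 and 30.3 CPM on OP9 (1.01 ± 0.14, adjusted p = 0.00493). The Sqstm1 call ended without replicate 2 of the monocytes on OP9-DLL1 (adjusted p = 0.0559).

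NADPH supply feeds both the oxidase and the reductases. Of 14 such genes 5 were higher and 4 lower in cMoPs on OP9-DLL1, and 6 were higher and 3 lower on OP9 (median log2 fold changes of 0.08 on OP9-DLL1 and 0.20 on OP9). All genes passed at a share of 57.4% on OP9-DLL1 and 56.5% on OP9. Mthfd1 and Mthfd2, enzymes of folate metabolism, were higher (for Mthfd1, 3.48 ± 0.15 on OP9-DLL1 and 3.60 ± 0.15 on OP9, adjusted p = 3.67e-07 and 5.17e-07, limma-trend), while Taldo1, transaldolase of the pentose phosphate pathway, was lower (-1.63 ± 0.12 on OP9-DLL1 and -1.42 ± 0.12 on OP9). In monocytes, where 3.36% of all genes were higher on OP9-DLL1, 3 of the 14 rose there (median of the 14, 0.31). They were Nadk, the cytosolic NAD kinase that makes NADP (1.08 ± 0.19, adjusted p = 0.0134), Tkt, transketolase (0.44 ± 0.10, adjusted p = 0.0331), and Taldo1 (0.52 ± 0.12, adjusted p = 0.0397). Each lost the call without either library of monocytes on OP9-DLL1 (adjusted p up to 0.201), and Tkt and Taldo1 lost it with median centring (0.0661 and 0.0903). All 3 lost it with no variance trend (0.085 to 0.151) and with only the libraries compared (0.0645 to 0.278). Tkt and Taldo1 are also on the NRF2 list, so their calls are counted in both lists.

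**Figure D4:**
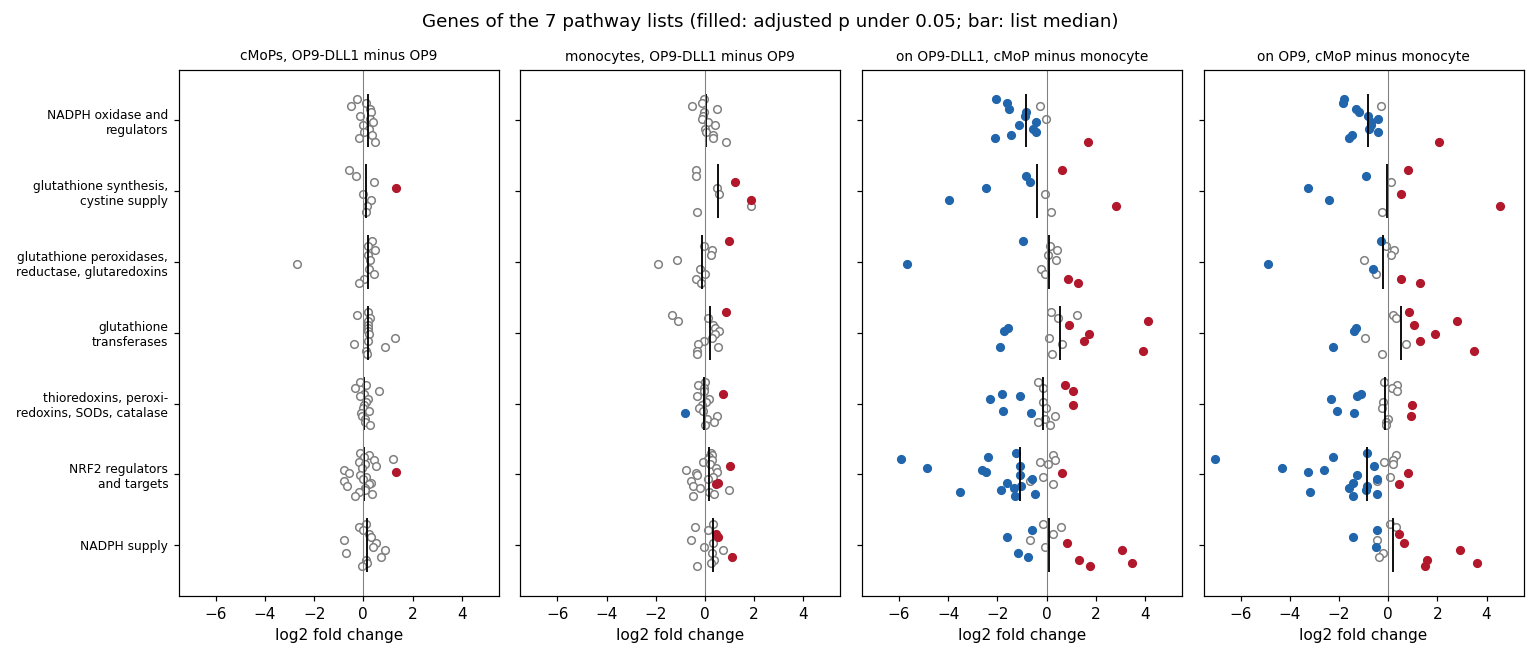
Fitted log2 fold changes of the genes of the 7 lists (rows) in 4 comparisons (panels), 1 point per gene, filled where the adjusted p was under 0.05, with a bar at the list median. The oxidase and NRF2 lists lie mostly left of 0 in cMoPs against monocytes, and few points are filled in the coculture panels. Fitted values of genes with 0 reads in a group (Gpx8 and Bach2) depend on the 0.5 reads added and are no measure of size.

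Genes with the most similar pattern over the 4 group means were looked up for 3 of the 9, among 9004 genes, by the root mean square difference of log2 means after centring each gene. For Cybb they were Bend4 (0.0283), Cyb561d1 (0.039) and C9orf72 (0.0447). For Gsr they were Sesn1 (0.0646), Gba2 (0.0677) and H2-DMb1 (0.0745), and for Gclm Blcap (0.0266), Phactr4 (0.0331) and Chsy1 (0.0339). With 4 points per gene and so many genes compared, such likeness is a description only.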

How the data were processed

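Per the labels' protocols, total RNA was made into libraries with a SMARTer Ultra Low kit, which does not mark strand, and sequenced as read pairs. Per the submitters' processing notes, alignment and counting tools were STAR 2.7.9a, featureCounts 2.0.3 (Subread) and Salmon 1.5.2, beside limma and edgeR, and the build was mm10. The authors deposited log2 CPM per library in 13430 entries, of which 42 repeat an identifier and were dropped. The deposited table also holds the authors' own log2 fold changes and adjusted p-values, which were turned to OP9-DLL1 minus OP9 where printed. The deposited values have the form of voom, with 0.5 reads added, and 100% came out as whole reads (tolerance 0.001), from which CPM and depth were computed.

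Differences were tested on the deposited log2 values with limma-trend (limma 3.58.1, R 4.3.3), all 8 libraries in a fit of group means with 4 residual degrees of freedom, for 13374 genes, with 14 low genes left out. Tests were two-sided, with Benjamini-Hochberg adjustment over all genes tested. With 2 libraries a group, values are given per library. The 9 genes, the 7 lists and the markers were chosen with earlier results of these data known. Beyond the 9 genes, up to 3 passing genes per list and comparison were named by smallest adjusted p, and up to 2 as values where none passed. Not all of these are named, for space, and the few given were picked with their values seen. The values of 1 gene counted in the oxidase list are not reported here. Alternatives were another pseudocount, no filter, median centring, no variance trend, only the libraries compared, voom, a replicate block and each library left out. Positions and exon lengths are from GENCODE M21 (GRCm38), the assembly of mm10. List medians were the same with genes at 0 reads set to their bound. Counting errors and floors cover counting only.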

Additional observations from a re-analysis of the deposited data

How the results depend on the processing

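No fold change of the 9 genes that passed changed sign under the alternatives tried. The number of genes passing in monocytes between OP9-DLL1 and OP9 was 855, against 248 with no variance trend, 306 with only the libraries compared and 164 to 2488 with each library left out. In cMoPs it was 103, against 37, 315, 64 by voom, 156 with the replicate block and 31 to 49. For the difference of responses it was 7, against 1 with no variance trend, 24 with a pseudocount of 1 CPM, 11 with the replicate block and 0 to 1124. For the mean of both responses, added after seeing the data, it was 846, against 343 with no variance trend and 329 to 2018. Of the 9 genes, 2 passed in monocytes with the pseudocount, median centring, voom or the replicate block (Gsr and Ncf1, with Ncf1 at adjusted p = 0.0485 under the block), and 1 to 5 with a library left out. In cMoPs 1 passed with only the libraries compared (Ncf1), in the difference 0 to 4 with a library left out, and in the mean of both responses 1 with no variance trend and 1 to 4 with a library left out. Where leaving out a library left 1 in its group, that one was assumed to vary like the other groups. The deviations of libraries with the same replicate number correlated at 0.023 to 0.089. A weak correlation over all genes cannot tell whether the numbers pair the samples, since a shared source could touch few genes. The neutrophil markers Camp, Ltf and Retnlg were higher in replicate 2 in every group, while others, Ngp and S100a8 among them, were not. The block changed no other call of the 9 genes. Of 368 values of the 9 genes and the other list genes (92 in all), the authors' deposited table gives another call for 13, of which 9 pass only there and 4 only in the fit used here. At 2 libraries a group, spread between libraries and not depth limits these values.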
